A study of Mus musculus with 24 samples.

Results

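Replication-dependent histone genes make the bulk of the core and linker histones that package newly copied DNA. They were taken here as every gene of the count tables whose mouse symbol begins with Hist1h, Hist2h, Hist3h or Hist4h, and 57 of the 37621 gene entries had such a symbol. A gene was kept if it had at least 10 counts in at least 3 of the 24 libraries, which left 44 genes. These were 5 H1 genes, 11 H2A, 11 H2B, 6 H3 and 11 H4 genes. By cluster, 34 lay in the Hist1 cluster on chromosome 13, 7 in the Hist2 cluster on chromosome 3 and 3 in the Hist3 cluster on chromosome 11. Hist3h2bb-ps, in the Hist3 cluster, is annotated as a processed pseudogene. No gene with a Hist4h symbol was among the 57. Of the 13 genes not kept, 5 had a count of 0 in every library, while Hist1h2ag and Hist1h2an just missed the rule with 10 or more counts in 2 libraries each. Just inside the rule were Hist1h2af and Hist1h2bp, which reached 10 counts in 4 libraries, and Hist2h2aa1, which did so in 5.

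Most messenger RNAs end in a poly(A) tail. Replication-dependent histone mRNAs do not: their 3′ end is formed by a cut just after a short stem-loop, guided by the U7 small nuclear ribonucleoprotein, and the stem-loop binding protein SLBP stays on the mature message. The messages accumulate in S phase and are degraded when DNA replication stops, so they mark dividing cells, and in adult brain most neurons no longer divide. Some genes of the family are also known to yield polyadenylated transcripts in differentiated cells. Because the libraries were made from total RNA after removal of ribosomal RNA and without poly(A) selection, both forms could be counted, and the counts per gene do not separate them.

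The stem-loops are shown because they are the feature that sets these RNAs apart and because they differ between histone classes. They were searched for in annotated transcripts as 2 arms of 6 bases that pair perfectly around a loop of 4 bases, with the left arm reading GGNNNT and the right arm ANNNCC. In the sequences the capitals mark the arms and the lower case letters the loop, 5′ to 3′ with T for U.
H1, H2A, H2B and H3 genes, 21 in all, among them Hist1h1e, Hist1h2ab and Hist3h2ba: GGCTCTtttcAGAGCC
Hist1h2bb, Hist1h2bk, Hist1h3c, Hist1h3e and Hist1h1t: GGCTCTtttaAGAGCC
Hist2h2ac: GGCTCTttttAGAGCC
H4 genes, 6 in all, among them Hist1h4c, Hist1h4d and Hist1h4h: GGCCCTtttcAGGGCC
Hist1h4i and Hist2h4: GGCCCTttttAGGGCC
Hist1h4b and Hist1h4j: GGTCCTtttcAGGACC
Hist1h4a: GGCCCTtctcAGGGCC
Every H4 stem found began GGCCCT or GGTCCT, and every stem found in the other classes began GGCTCT. Among the 44 kept genes, 33 had such a stem-loop in an annotated transcript. In 16 of the 44 it lay within the last 100 bases of the transcript. Of 21951 protein-coding genes 54 (0.246%) had one there, a count that includes these 16. The other 11 kept genes had none in the annotated transcripts searched, Hist1h1a, Hist1h1b, Hist1h2bc and Hist2h2be among them, which says only that these letters were not in those models.

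The libraries came from dissected cerebellum, cortex, hippocampus and olfactory bulb of C57BL/6 mice that were Cdr1as knockout (KO) or wild type (WT), with 3 replicates of each genotype in each region. Cdr1as is a circular RNA of neurons with many sites for the microRNA miR-7. The age and sex of the mice are not given in the labels used here. Each library held 5.18 to 30.46 M gene counts (M, mega; median 16.9 M). Cdr1as had 0 to 13 counts in KO libraries and 5617 to 130878 in WT libraries, and the 6 marker genes written down for each region were all higher in that region than in the mean of the other 3 (edgeR, adjusted p under 0.05). In 3 libraries the depth was under 8 M: cerebellum KO 1 with 6.5 M, olfactory bulb KO 2 with 5.18 M and olfactory bulb WT 1 with 7.4 M. Of the 44 histone genes, 18, 16 and 5 had a count of 0 in these 3 libraries in that order, and at most 1 did in any other library. Over all genes, 13741, 14393 and 16483 had any count in these 3, against 20024 to 22619 in the others. Reads that aligned to no annotated feature made up 20.3% to 62.9% of a library and reads without a unique alignment 8.78% to 21.4%. Because counting leaves out reads without a unique alignment, near-identical histone genes can lose reads or share them. A median of 45.0% of each kept gene's 50-base windows also occurred in another gene's transcript, and for 18 of the 44 the share was over 50%. It was 100% for Hist2h2aa1 and Hist2h3b and 1% for Hist2h4. In addition, 15 of the 44 overlap another annotated gene, so single-gene values in these groups are uncertain.

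Together the 44 genes took 0.0242% to 0.0706% of a library's gene counts, with a median of 0.0424%. Their summed level in CPM (counts per M gene counts, with library sizes scaled by TMM over all 24 libraries) lay between 248 in cortex WT 2 and 757 in hippocampus WT 1. In the cerebellum they were 411, 405 and 487 CPM in KO replicates 1 to 3, against 376, 366 and 493 CPM in WT. In the cortex they were 397, 342 and 477 CPM in KO, against 501, 248 and 467 CPM in WT. In the hippocampus they were 322, 304 and 402 CPM in KO, against 757, 338 and 334 CPM in WT. In the olfactory bulb they were 481, 355 and 529 CPM in KO, against 534, 468 and 584 CPM in WT. KO and WT overlapped in every region. Without hippocampus WT 1 and cortex WT 2, every remaining library lay between 304 and 584 CPM.

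**Figure D1:**
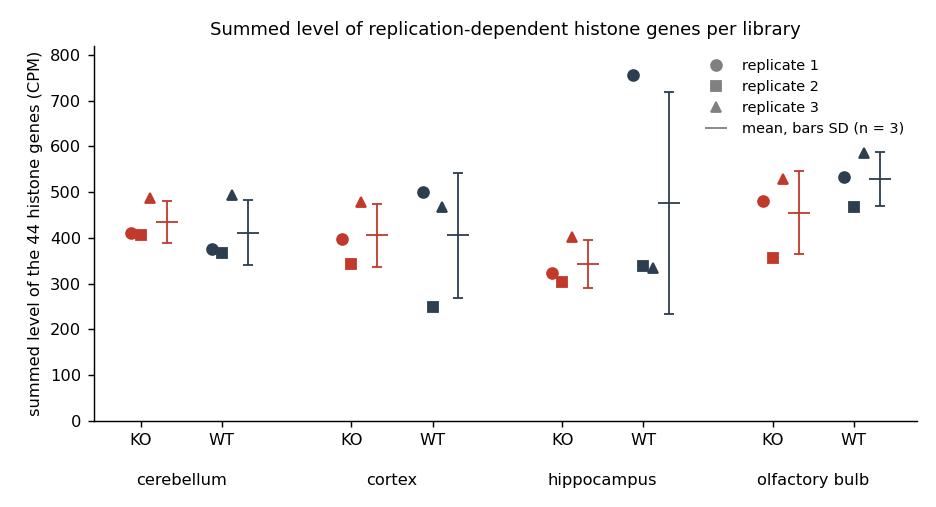
Summed level of the 44 histone genes in CPM (vertical axis) for each library, by region and genotype, with replicates as circles, squares and triangles and the mean with its SD (n = 3) beside them. KO and WT libraries overlap in all 4 regions, and hippocampus WT 1 at 757 CPM and cortex WT 2 at 248 CPM stand apart.

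Among the classes, H4 genes had the highest level per kilobase of exon. Summed over the genes of a class, H4 reached a median of 327 CPM per kilobase over the 24 libraries (143 to 619). H2B, which pairs with H2A in the nucleosome, followed at 87.2 (52.6 to 147) and the linker histones H1 at 55.9 (30.3 to 83.3). H2A had 37.4 (22.2 to 67.6) and H3 had 19.5 (10.3 to 43.3). Between different libraries, the ranges of neighbouring classes overlap throughout, also those of H2B with H2A and of H1 with H3. The lowest H4 value (cortex WT 2) lay just under the highest H2B value (hippocampus WT 1). Within each of the 24 libraries the order was H4, H2B, H1, H2A and H3, from highest to lowest. Exon lengths are those of a later annotation than the one counted on, so these orders hold only as far as the gene models do.

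Single genes carried much of each class. In the WT libraries the H4 genes Hist1h4h, Hist1h4d and Hist1h4c averaged 92.2, 59.5 and 53.6 CPM per kilobase in that order, followed by Hist1h4k at 42.3 and Hist1h4f at 36.1. Next came the H2B gene Hist3h2ba at 27.3 and the linker histone genes Hist1h1e at 22.3 and Hist1h1c at 20.5, which encode H1.4 and H1.2. The leading H2A genes were Hist2h2ac at 11.3 and Hist2h2ab at 7.01. After Hist3h2ba, the highest H2B gene was Hist1h2bc at 16.4. Of the H3 genes Hist1h3e led with 15.2 and Hist2h3b followed at 3.76. At the low end, Hist2h2aa1 averaged 0.581, Hist1h2af 0.81, Hist1h3b 0.826, Hist1h3c 0.863, Hist1h2bp 0.902 and Hist1h2ae 0.94 CPM per kilobase.

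The H4 totals overlapped between regions in WT animals. H4 summed to 315 ± 90.3 CPM per kilobase in the cerebellum, 296 ± 134 in the cortex, 372 ± 214 in the hippocampus and 408 ± 69.3 in the olfactory bulb (SD, n = 3 each). H3 summed to 35.8 ± 3.70 CPM per kilobase in the olfactory bulb, 26.0 ± 15 in the hippocampus, 21.2 ± 9.9 in the cortex and 14.8 ± 4.53 in the cerebellum (SD, n = 3 each). The lowest olfactory bulb WT library held 32.0 and the highest cerebellum WT library 20.0, so these groups did not overlap. Fewer cells of a type and less RNA per cell cannot be told apart in such bulk samples.

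**Figure D2:**
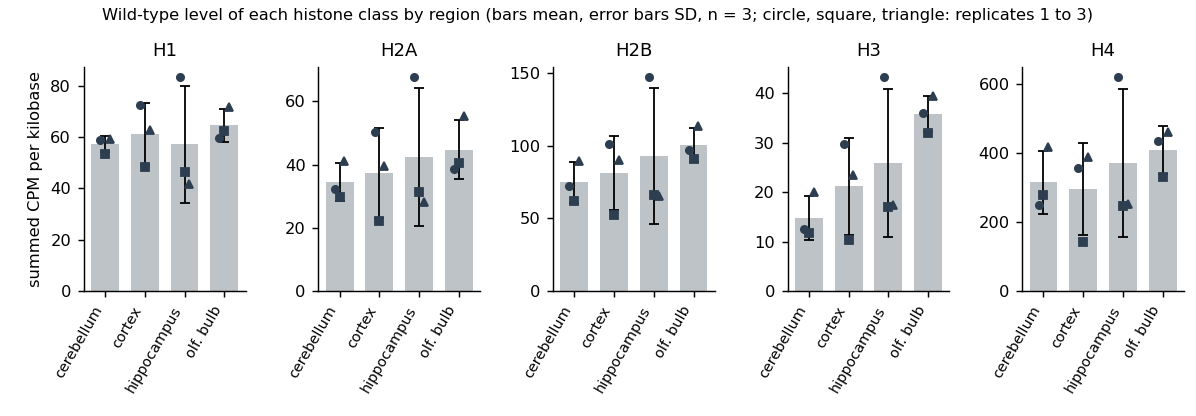
Summed level per kilobase of exon (vertical axes, CPM per kilobase, separate scale for each class) of the H1, H2A, H2B, H3 and H4 genes in the WT libraries of each region. Bars are means with SD (n = 3) and the points are libraries; H4 has the highest scale, and replicate 1 of the hippocampus and replicate 2 of the cortex set most of the spread.

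The comparison between regions asked which histone genes differ in level from region to region in WT brain. It was tested gene by gene in the 12 WT libraries with edgeR's quasi-likelihood F-test, each region against the mean of the other 3, with Benjamini-Hochberg adjustment over the 16995 genes that passed a filter on low counts. The filter kept 41 of the 44 histone genes (not Hist1h2af, Hist1h2bp and Hist2h2aa1).

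In the WT cerebellum, genes of the Hist1 cluster made up nearly all of those that were lower than elsewhere, and genes of the small clusters most of those that were higher. Of the 41 genes 18 fell, where 24.1% of all genes tested did, and 4 rose, where 22.7% of all genes did; together 22 of 41 stood beside 46.8% of all genes. The median log2 difference was −0.80 for the 41 genes and 0.00 for all genes. By class, 7 of 10 H2B genes, 4 of 9 H2A genes, 4 of 6 H3 genes, 2 of 11 H4 genes and 1 of 5 H1 genes were lower. By cluster, 17 of 32 Hist1 genes were lower and 1 was higher, while 1 of 9 Hist2 and Hist3 genes was lower and 3 were higher.

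Hist2h4 (ENSMUSG00000091405), the H4 gene of the Hist2 cluster and the H4 gene with the lowest share of windows found in other genes, had the largest rise of the 4. It had 29.2, 27.9 and 40.1 CPM in the WT cerebellum. The other WT libraries had 12.6, 8.17 and 14.7 CPM in the cortex, 22.8, 12.7 and 10.3 CPM in the hippocampus and 20.2, 18.3 and 22.8 CPM in the olfactory bulb. No library of another region reached the cerebellar values. The log2 difference was 1.07 (SE 0.21, adjusted p = 7.48e-04, edgeR).

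Hist1h1e (ENSMUSG00000051627), which encodes the linker histone H1.4, was the only Hist1 gene among the 4 that rose, and its model overlaps that of Hist1h2be on the same strand. Its levels were 53.7, 54.6 and 55.3 CPM in the WT cerebellum, against 50.2, 35.5 and 41.6 CPM in the cortex, 53.0, 37.0 and 29.0 CPM in the hippocampus and 34.2, 34.5 and 36.6 CPM in the olfactory bulb. The 3 cerebellar libraries lay above the other 9, of which hippocampus WT 1 came closest. The log2 difference was 0.49 (SE 0.14, adjusted p = 0.0126). The Hist3 genes Hist3h2ba, an H2B gene, and Hist3h2bb-ps rose by 0.60 (SE 0.21, adjusted p = 0.0318) and 0.90 (SE 0.31, adjusted p = 0.0263).

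The largest falls among genes past the threshold were those of Hist1h2ab, Hist1h2bf, Hist1h3c and Hist1h2bk, core histone genes of the Hist1 cluster. The share of windows found in other genes was 58.0%, 65.8%, 47.0% and 74.2% for these genes in that order. Hist1h2ab also overlaps another annotated gene on the opposite strand. The single-gene values of these falls are therefore uncertain. Hist1h2ab, an H2A gene, had 0.261, 0.0626 and 0.488 CPM in the WT cerebellum. Elsewhere it had 2.26, 1.1 and 2.2 CPM in the cortex, 3.89, 1.04 and 1.51 CPM in the hippocampus and 1.0, 1.19 and 2.11 CPM in the olfactory bulb. All 9 other libraries lay above the 3 cerebellar ones, and the log2 difference was −2.71 (SE 0.59, adjusted p = 0.00171). The cerebellar values stand for 8, 1 and 8 counts. For Hist1h2bf, an H2B gene, the cerebellum held 0.359, 0.438 and 0.549 CPM, against 1.07 to 3.9 CPM in the other WT libraries, a log2 difference of −2.33 (SE 0.45, adjusted p = 6.38e-04). Hist1h3c, an H3 gene, differed by −2.29 (SE 0.80, adjusted p = 0.03) on 2 to 3 counts per cerebellar library, and Hist1h2bk, an H2B gene, by −2.13 (SE 0.70, adjusted p = 0.0221) on 2 to 7 counts. The abundant H4 genes Hist1h4d, Hist1h4c and Hist1h4h did not pass, with log2 differences of −0.37 (SE 0.29), −0.18 (SE 0.33) and 0.10 (SE 0.39).

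**Figure D3:**
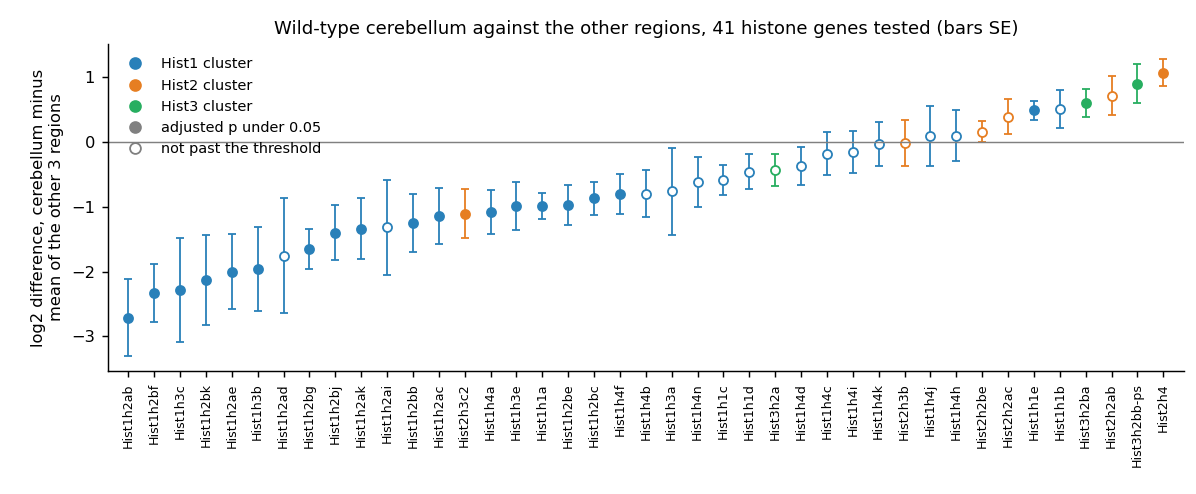
Log2 difference between the WT cerebellum and the mean of the other 3 WT regions (vertical axis) for the 41 histone genes tested, ordered by value and coloured by gene cluster, with bars of 1 SE and filled points for adjusted p under 0.05. Hist1 genes fill the low end down to Hist1h2ab at −2.71, and Hist2h4 stands at the high end at 1.07.

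Hist3h2bb-ps and Hist1h3c missed the threshold without any one of the 3 cerebellum WT libraries (adjusted p up to 0.0953 and 0.126, edgeR). Hist3h2ba missed without cerebellum WT 1 or 3 (up to 0.227) and just missed without hippocampus WT 2 or olfactory bulb WT 1 (0.0529 and 0.0501), and Hist1h2bk missed without cerebellum WT 1 or 2 (up to 0.13). Hist1h3c also missed without cortex WT 3, hippocampus WT 1 or olfactory bulb WT 3 (0.0542 to 0.061). Hist2h4, Hist1h1e, Hist1h2ab and Hist1h2bf passed whichever library was left out.

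The number of cerebellar calls depended on single libraries. Without cerebellum WT 1, 2 or 3 it was 9, 8 and 14, and with the replicate number as a block it was 27. Over all genes, leaving out single WT libraries gave 6136 to 8933 calls, against 7958 with all 12. The count over all genes with the block is not given here. The 12 KO libraries, which the WT test did not use, gave the same contrast again: 21 of the 22 genes had the same sign there, with Hist1h2bj the exception, and 6 of the 22 passed in the same direction. Those 6, Hist2h4, Hist1h1e, Hist3h2ba, Hist1h2ab, Hist1h2bf and Hist1h2bc, were 6 of the 8 histone genes called in the KO libraries, where 40.1% of all genes were called. In the 10 KO libraries of at least 8 M, a choice made after the depths were seen, all 22 had the same sign and 13 passed, of 18 histone genes called (54.3% of all genes). Hist2h4 differed there by 1.37 (SE 0.14) and Hist1h2ab by −2.25 (SE 0.50).

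In the WT olfactory bulb 6 histone genes were higher than in the other regions and none was lower, beside 18.4% and 17.5% of all genes (35.9% in either direction). Of the 41 genes 34 had a positive log2 difference, with a median of 0.37. With the replicate number as a block 10 passed, and the count over all genes in that fit is not given here. Hist1h1a, which encodes the linker histone H1.1, had 9.78, 10.4 and 11.8 CPM, against 4.02, 3.57 and 4.15 CPM in the cerebellum, 6.97, 7.45 and 8.86 CPM in the cortex and 7.87, 4.73 and 4.33 CPM in the hippocampus. All 3 olfactory bulb libraries lay above the other 9, and the log2 difference was 0.96 (SE 0.18, adjusted p = 8.78e-04, edgeR). Hist1h3e, the H3 gene of highest level, had 21.6, 17.9 and 21.6 CPM in the olfactory bulb. The other WT libraries held 5.82 to 9.52 CPM in the cerebellum, 4.03 to 16.5 in the cortex and 8.02 to 20.7 in the hippocampus, where WT 1 overlapped the olfactory bulb. Its log2 difference was 1.05 (SE 0.33, adjusted p = 0.0234). Hist1h2bf and Hist2h3c2 differed by 1.23 (SE 0.36, adjusted p = 0.0152) and 1.22 (SE 0.33, adjusted p = 0.0096), and Hist1h2bg and Hist2h2be made up the 6.

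Hist1h1a passed in the olfactory bulb whichever of the 12 libraries was left out. Hist1h2bf, Hist1h3e and Hist2h3c2 each missed the threshold when a library of the olfactory bulb was left out, with adjusted p-values of 0.133 for Hist1h2bf without WT 3, 0.0552 for Hist2h3c2 without WT 2 and up to 0.0844 for Hist1h3e without WT 3 (edgeR). In the 12 KO libraries all 6 genes had the same sign and 4 of them passed, among 6 histone genes called (27.9% of all genes). In the 10 KO libraries of at least 8 M all 6 passed, among 13 called (37.3% of all genes). Adding each library's no-feature share to the WT fit, also chosen after the data were seen, gave 25 calls and a median of 0.99. It gave 17 in the cerebellum, 16 in the cortex (median −0.81) and 5 in the hippocampus. The share of all genes called in that fit is not given here. These counts are therefore not read as particular to the histone genes.

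In the WT cortex 2 of 41 genes passed, both lower (14.5% of all genes were lower, 19% were higher and 33.4% either). Hist2h4 was lower by a log2 difference of −0.85 (SE 0.23, adjusted p = 0.0125, edgeR) and Hist2h2be, an H2B gene whose transcript shares no window with another gene, by −0.72 (SE 0.18, adjusted p = 0.00682). Hist2h2be had 8.01, 6.00 and 5.96 CPM in the WT cortex, against 11.5, 9.95 and 10.1 CPM in the cerebellum, 11.2, 6.67 and 8.80 CPM in the hippocampus and 12, 15.1 and 15.1 CPM in the olfactory bulb. The cortex and the hippocampus overlapped. Hist2h4 missed without cortex WT 2 (adjusted p = 0.0523) and Hist2h2be without cortex WT 3 (adjusted p = 0.0569). Both passed in the same direction in the 12 KO libraries, where 27.1% of all genes were called, and in the 10 KO libraries, where 47.7% were. All 9 Hist2 and Hist3 genes tested had negative log2 differences in the WT cortex, with a median of −0.38, beside 10 of 32 Hist1 genes.

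In the WT hippocampus the H2B gene Hist1h2bc was higher (log2 difference 0.74, SE 0.23, adjusted p = 0.0270, edgeR) and Hist3h2bb-ps lower (−1.01, SE 0.34, adjusted p = 0.0445), where 15.3% of all genes were higher, 10.6% lower and 25.9% either. Hist1h2bc rested on WT 1: it had 44.3 CPM there and 17.9 and 19.2 CPM in WT 2 and 3, and without WT 1 the log2 difference was 0.21 (adjusted p = 0.509). Hist3h2bb-ps missed without 9 of the 12 WT libraries in turn (adjusted p 0.0529 to 0.199, edgeR). Without WT 1 the median over the histone genes tested was −0.36, against 0.23 with it. In the KO libraries neither gene passed in all 12 (19.9% of all genes called), and Hist3h2bb-ps passed in the 10 of at least 8 M (35.2% called).

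Hist2h4 passed in the cerebellum and the cortex in both genotypes. In KO libraries it had 63.8, 37.5 and 43.0 CPM in the cerebellum, 18.6, 19.9 and 21.8 CPM in the olfactory bulb, 14.4, 12 and 18.3 CPM in the cortex and 12.2, 11.3 and 14.7 CPM in the hippocampus. The 3 cerebellar libraries lay above all those of the other regions in both genotypes, and cortex and hippocampus overlapped in both.

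For genes that act on histone mRNA, the share called in each WT region lay below that of all genes, a difference that was not tested. These lists were chosen from textbook knowledge with earlier results of these data known. Of 18 genes of histone mRNA transcription and 3′ end processing, 5 were higher and 1 lower in the cerebellum, 3 higher and 2 lower in the cortex, 1 higher and 2 lower in the hippocampus and 1 lower in the olfactory bulb. Of all genes 46.8%, 33.4%, 25.9% and 35.9% were called in these regions in that order. The gene lower in the olfactory bulb was Lsm11, a subunit of the U7 particle, at 10.2 ± 1.24 CPM in the olfactory bulb, against 66.4 ± 9.87 in the cerebellum, 48.5 ± 13.6 in the cortex and 47.0 ± 2.85 in the hippocampus (SD, n = 3 each). Its log2 difference in the olfactory bulb was −2.38 (SE 0.18, adjusted p = 1.52e-07, edgeR), while the 6 histone genes called there were higher. Slbp, which encodes the stem-loop binding protein, was at 12.2 ± 1.03 to 15.7 ± 1.82 CPM in the 4 WT regions and passed in none of them. Of 14 genes of histone mRNA decay, 5 were higher in the cerebellum and none lower, where 22.7% of all genes were higher and 46.8% called. In the cortex 1 was higher and 3 lower, and in the hippocampus and the olfactory bulb 1 was higher and 2 lower. In the cerebellum Smg1, a kinase of RNA surveillance, was at 1.58 (SE 0.13) and Tut4, an RNA uridylyltransferase, at 0.93 (SE 0.19).

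Genes of S phase and division did not all move one way. Of 27 tested, 10 were higher and 5 lower in the WT cerebellum, beside the 46.8% of all genes called, with a median log2 difference of 0.08. Cyclin E2 (Ccne2) and the DNA polymerase subunit Pold1 were higher by 1.58 (SE 0.18) and 1.37 (SE 0.16), and the topoisomerase Top2a lower by −3.10 (SE 0.36). Of the 6 markers of dividing cells, Top2a, Mki67 and Birc5 were lower in the cerebellum and none higher. Summed, these markers lay at 3.76 to 4.48 CPM in the 3 WT cerebellum libraries and at 8.65 to 10.7 CPM in the WT olfactory bulb. They lay at 11.2 to 13.6 CPM in the WT hippocampus and 9.88 to 24.9 CPM in the WT cortex. The highest value was that of cortex WT 2, the library with the lowest histone sum (248 CPM). The olfactory bulb is a region that receives new neurons in adult mice. All 12 genes of the neuroblast list were higher there, with a median of 4.80 (Dlx1 at 6.06, SE 0.12). The part of new neurons in this difference was not tested. Among the S phase genes 3 of 27 were higher and 3 lower in the olfactory bulb, beside 35.9% of all genes called. The part of cell composition in the histone values was not tested.

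The knockout comparison asked whether loss of Cdr1as changed these genes in any region. No histone gene passed an adjusted p of 0.05 in any of the 4 regions, by edgeR or by DESeq2. In the cerebellum 0 of 34 genes tested were called beside 0.00644% of all genes, and 2 had an unadjusted p under 0.05, where 1.89% of all genes did. In the cortex it was 0 of 40 beside 0.00634%, with 0 at an unadjusted p under 0.05, beside 5.64% of all genes. In the hippocampus it was 0 of 40 beside 0.0062%, with 4 unadjusted beside 4.01% of all genes, and in the olfactory bulb 0 of 38 beside 0.0253%, with 0 unadjusted beside 2.43%. DESeq2 gave 4, 0, 8 and 0 histone genes at an unadjusted p under 0.05 in the same order of regions, beside 2.52%, 5.96%, 3.44% and 2.92% of all genes. Over all genes edgeR called 1, 1, 1 and 4, so the comparison had few calls to set these against. With the replicate number as a block the counts stayed at 0. All 3 KO libraries lay above all 3 WT libraries for 1 of the 44 genes in the cerebellum, 1 in the cortex and 0 in the other regions, where 3.78%, 6.84%, 4.9% and 5.65% of the 17915 genes kept by the same count rule did, in the order cerebellum, cortex, hippocampus and olfactory bulb. They lay below for 3, 1, 3 and 3 of the 44, beside 7.52%, 6.06%, 4.62% and 5.11% of those genes, so these shares were near the background.

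The median log2 fold change of the genes tested, KO over WT, was 0.02 in the cerebellum (18 of 34 higher), −0.14 in the cortex (13 of 40 higher), −0.44 in the hippocampus (2 of 40 higher) and −0.33 in the olfactory bulb (5 of 38 higher). Over all genes the medians were −0.04, 0.00, −0.02 and −0.01. Genes of 1 library share its depth and quality, so these counts of signs are not independent. In the cortex 10 of 11 H4 genes had positive values, but 4 of 11 did without KO 3 and 1 of 11 without WT 2. Over all classes 24 of 41 were higher without cortex WT 1 (median 0.11) and 1 of 41 without cortex WT 2 (median −0.31).

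The hippocampal median depended on 1 library. Hippocampus WT 1 had the highest level of the 6 hippocampal libraries for 40 of the 41 histone genes with at least 10 counts in 3 of them, while it did so for 4873 of all 16217 such genes. It also had the lowest share of reads in no feature of the 6, 37.0% against 48.3% to 55.4% in the others, and the highest share of reads without a unique alignment, 21.4% against 10.5% to 12.9%. Without it the median log2 fold change of the histone genes was 0.13 (24 of 40 higher), and a covariate for the no-feature share gave 0.08. Summed markers of choroid plexus, the epithelium that makes cerebrospinal fluid, were also highest in this library, at 2342 CPM, but reached 1851 CPM in WT 3, where the histone sum was 334 CPM. They lay at 33.4 CPM in WT 2 and 33.0 to 38.6 CPM in the KO libraries. The part of these measures in the shift was not tested further.

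The 5 histone genes of smallest p in each region are given as values, since none passed. In the hippocampus Hist1h1e had 25.1, 22.6 and 26.8 CPM in KO, against 53.0, 37.0 and 29.0 CPM in WT. The groups did not overlap, at a log2 fold change of −0.67 (SE 0.20, adjusted p = 0.953, edgeR). Without WT 1 it was −0.41. In the cerebellum the same gene had 38.1, 39.7 and 46.6 CPM in KO, against 53.7, 54.6 and 55.3 CPM in WT, again without overlap, at −0.38 (SE 0.11, adjusted p = 0.949, edgeR). In the cortex it had 44, 25.9 and 39.4 CPM in KO, against 50.2, 35.5 and 41.6 CPM in WT, which overlap. In the olfactory bulb it had 34.3, 20.6 and 30.5 CPM in KO, against 34.2, 34.5 and 36.6 CPM in WT, with a log2 fold change of −0.30 (SE 0.19).

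Hist2h4 had 63.8, 37.5 and 43.0 CPM in the KO cerebellum, against 29.2, 27.9 and 40.1 CPM in WT, a log2 fold change of 0.57 (SE 0.23, adjusted p = 0.949, edgeR). The groups overlapped through KO 2, and without KO 1 the value was 0.32. Hist1h2ai, an H2A gene with 90.1% shared windows, had the highest cerebellar fold change, 2.96 (SE 1.29), with 59 counts in KO 1, the library of 6.5 M, and 6 and 13 in KO 2 and 3. Without that library the log2 fold change was 0.51. The H2B gene Hist1h2bj at 1.51 (SE 0.75) and the H4 gene Hist1h4h at 0.45 (SE 0.23) completed the 5. Without KO 1 Hist1h2bj was at 0.83, and without single libraries Hist1h4h ran from 0.26 (without WT 1) to 0.74 (without WT 3). The same shallow library listed Hist1h1b, the linker histone H1.5 gene, at 0 counts, beside 65 and 62 counts in KO 2 and 3, and against 73 to 175 in WT. Olfactory bulb KO 2 also listed it at 0.

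In the cortex the smallest p-values belonged to Hist1h1d, the linker histone H1.3 gene, at −0.55 (SE 0.26), Hist2h3c2 at −0.98 (SE 0.52), Hist2h2be at −0.37 (SE 0.21), Hist1h4n at −0.54 (SE 0.39) and Hist2h4 at 0.30 (SE 0.23). Without WT 1 Hist1h1d was at −0.26, Hist2h2be at −0.20 and Hist1h4n at −0.35, and without KO 1 Hist1h4n was at −0.23. Without WT 2 Hist2h4 was at 0.11 and without KO 3 at 0.13, and Hist2h3c2 ran from −1.39 (without KO 2) to −0.71 (without WT 2). In the hippocampus Hist2h3b, an H3 gene, followed Hist1h1e at −1.07 (SE 0.41), with Hist1h2ac at −0.85 (SE 0.36), Hist1h1d at −0.68 (SE 0.29) and Hist1h2bg at −0.79 (SE 0.36). Without WT 1 these 4 were at −0.62, −0.37, −0.26 and −0.35 in that order. In the olfactory bulb Hist2h2be had 20.6, 29.9 and 13.2 CPM in KO, against 12, 15.1 and 15.1 CPM in WT. Its log2 fold change was 0.56 (SE 0.30), and the highest value was that of the library of 5.18 M, without which it was 0.24. Hist3h2ba was at −0.47 (SE 0.25), Hist1h3e at −0.41 (SE 0.22) and Hist1h1d at −0.36 (SE 0.26) there. Without KO 2 these were at −0.32, −0.25 and −0.31, and Hist1h1e at −0.13. Hist1h1d was at −0.03 without WT 1, the other shallow library.

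**Figure D4:**
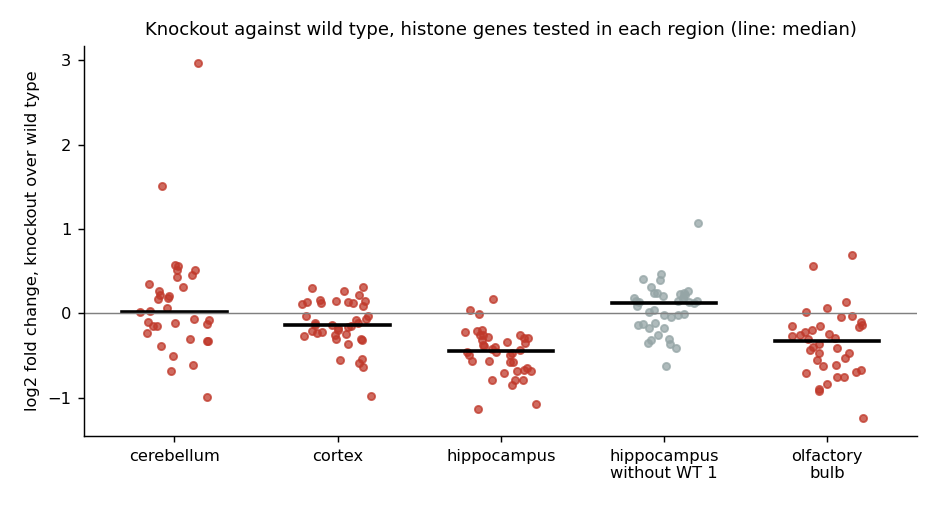
Log2 fold change of KO over WT (vertical axis) for each histone gene tested in a region, 1 point a gene, with the median as a line; the grey points repeat the hippocampus without WT 1. The hippocampal median lies at −0.44 with that library and at 0.13 without it, and no point passed an adjusted p of 0.05.

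No difference of the knockout effect between regions was called for any of the 42 histone genes in the interaction test over all 24 libraries (edgeR, smallest adjusted p = 1), beside 0.00568% of all genes, and 0 had an unadjusted p under 0.05. The smallest p-values were 0.102 for Hist1h2ai and 0.105 for Hist2h2be. None of the listed genes of histone mRNA processing (18), decay (14), chaperones (15 or 16), replication-independent histones (10), S phase and division (22 to 27) or neuroblasts (6 to 12) passed in a knockout comparison either. Slbp was at −0.37 (SE 0.16) in the hippocampus, with 11.4 ± 1.75 CPM in KO and 14.8 ± 1.93 CPM in WT (SD, n = 3 each).

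The level of the histone genes was set against the share of a library's reads in no feature, with region and genotype in the fit and all 24 libraries. Of 42 genes tested, 13 were lower with a higher share and none was higher, beside 8.08% and 8.38% of all genes (16.5% in either direction). With the replicate number as a block 2 of 42 passed, and 602 of 17600 genes in all. In all, 40 of 42 had negative slopes, and the median was −0.36 in log2 for each 10 percentage points, against −0.01 for all genes. All 5 H1 and all 11 H4 genes had negative slopes, of which 3 and 5 passed. The smallest p-values belonged to Hist1h1e at −0.25 (SE 0.05, adjusted p = 0.00111), Hist1h4d at −0.37 (SE 0.08, adjusted p = 0.0021), Hist1h1d at −0.35 (SE 0.08, adjusted p = 0.00239) and Hist1h3e at −0.43 (SE 0.10, adjusted p = 0.00296, all edgeR). The 2 genes with positive slopes, Hist1h2af at 0.12 (SE 0.28) and Hist2h3c2 at 0.07 (SE 0.19), did not pass.

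Hist1h4d is given by library, with the share beside its level. In the cortex, where the share ran from 20.3% in WT 1 to 56.2% in WT 2, its levels were 64.8, 54.9 and 76.7 CPM in KO at shares of 30.5%, 53.7% and 33.6%. In WT they were 73.8, 30.1 and 69.9 CPM at 20.3%, 56.2% and 34.9%. In both genotypes replicate 2 had the highest share and the lowest level. In the hippocampus WT 1 had 118 CPM at 37.0%, and the other 5 libraries had 46.2 to 58.5 CPM at 48.3% to 55.4%. The cerebellum did not follow this order: its levels were 32.3, 51.7 and 62.1 CPM in KO at 58.0%, 61.5% and 55.8%, against 48.9, 50 and 65.6 CPM in WT at 53.7%, 60.2% and 56.8%. In the olfactory bulb they were 85.0, 61.7 and 87.9 CPM in KO at 52.3%, 62.9% and 60.1%, against 87.3, 77.5 and 94.2 CPM in WT at 59.5%, 62.9% and 58.7%. There replicate 2 again had the highest share and the lowest level in both genotypes. Cortex WT 2 was the lowest of the 6 cortex libraries for 27 of the 39 histone genes with at least 10 counts in 3 of them, and for 32.6% of all such genes.

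Within regions the relation was not the same size. With the 6 libraries of 1 region alone, 24 of 40 genes were lower in the hippocampus, where 4.84% of all genes were, and 10 of 40 in the cortex, beside 9% of all genes. In the cerebellum and the olfactory bulb alone no gene of any kind passed, so 0 of 34 and 0 of 38 histone genes did. The shares spanned 37.0% to 55.4% in the hippocampus and 20.3% to 56.2% in the cortex, but only 53.7% to 61.5% in the cerebellum and 52.3% to 62.9% in the olfactory bulb. As a description over 6 libraries, Pearson's r between the log2 summed level and the share was −0.99 for the hippocampus, −0.87 for the cortex, −0.36 for the olfactory bulb and −0.26 for the cerebellum (Spearman's rho −0.94, −0.83, −0.60 and −0.26). Without the 2 libraries farthest from the median share, r over 4 was −0.95, −0.34, −0.99 and −0.96. The 2 measures share the same libraries and depth. Leaving out cortex WT 2 or hippocampus WT 1 took the 13 calls to 3 and 5, and leaving out the 3 libraries under 8 M raised them to 25. Over all genes, leaving out single libraries gave 1073 to 4026 calls, against 2897 with all 24. The count over all genes without those 3 libraries is not given here.

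**Figure D5:**
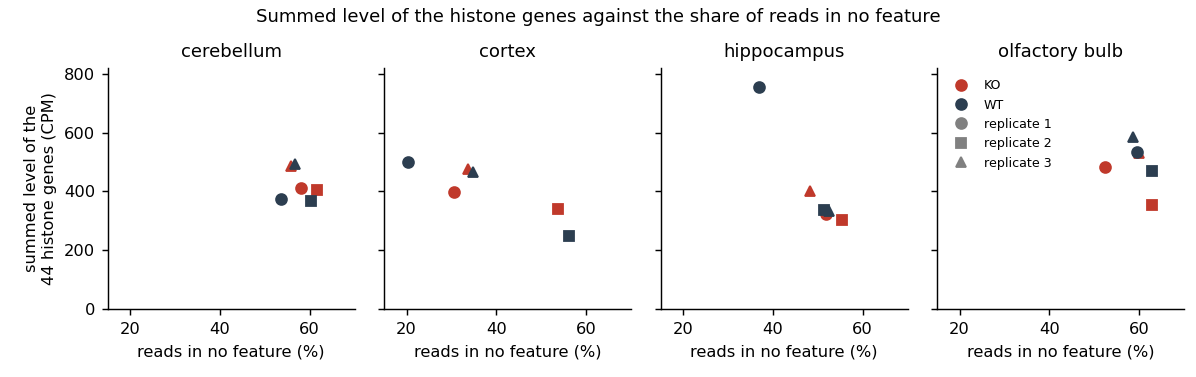
Summed level of the 44 histone genes in CPM (vertical axis) against the share of reads in no feature in percent (horizontal axis) for the 6 libraries of each region, with colour for genotype and shape for replicate. In the hippocampus WT 1 stands alone at 37.0% and 757 CPM, and in the cortex both replicates 2 lie at the high shares and low levels.

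A second measure of the same libraries moved the other way. With the share of reads without a unique alignment in place of the share in no feature, a fit chosen after the data were seen, 16 of 42 histone genes were higher and none lower, beside 5.66% and 4.38% of all genes (10% in either direction). All 42 slopes were positive, with a median of 1.38 in log2 for each 10 percentage points. Hist1h4d had a slope of 1.36 (SE 0.16) and Hist1h4c of 1.43 (SE 0.23). Without hippocampus WT 1, the library with the highest such share, 8 histone genes passed, beside 1667 over all genes.

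Other RNAs that lack a poly(A) tail had slopes of both signs on the share in no feature. Only some of these slopes are given, and the part of the missing tail in them was not tested. Among 7 others listed, Rpph1, the RNA of RNase P, and Rn7sk, the 7SK RNA that holds back transcription elongation, had slopes of −0.49 (SE 0.09, adjusted p = 7.35e-04, edgeR) and −0.35 (SE 0.10, adjusted p = 0.0193). Malat1 and Neat1, long nuclear RNAs that end in a cut and not in a poly(A) tail (for Neat1, its long form), had slopes of 0.65 (SE 0.05, adjusted p = 1.56e-08) and 0.68 (SE 0.07, adjusted p = 4.97e-07). The replication-independent histone genes, whose mRNAs mostly carry a poly(A) tail (H2afx yields both kinds), had negative slopes in 10 of 10, and 5 passed: H2afx at −0.29 (SE 0.07), H3f3a and H2afz at −0.19 (SE 0.05 each), H3f3b at −0.15 (SE 0.05) and H2afv. Of the 27 S phase genes 1 passed, Pcna, the sliding clamp of DNA polymerase, at −0.19 (SE 0.06), and the median slope was 0.00.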

How the data were processed

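Total RNA was extracted with TRIZOL, depleted of ribosomal RNA with RNase H and made into libraries with a stranded kit, per the labels' protocols. The authors deposited unnormalized counts for every gene, with a separate table for each library. bcl2fastq 2.17.1.14, STAR 2.5.1b, HTSeq 0.6.1p1 and the mm9 build are named in the submitters' processing notes (settings and strand use: not given in the sources used here). Reads of a gene and its antisense partner may not be told apart. Summary entries that name no gene entered neither library sizes nor tests. Reads in no feature made up 20.3% to 62.9% of all entries of a library and reads without a unique alignment 8.78% to 21.4%.

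Names, chromosomes, exon lengths and transcript sequences came from GENCODE annotation of GRCm38, so no coordinates are given. It named 32897 of 37621 entries. Of 70 annotated symbols of the family, 13 had no entry among the counts, and a further 13 were not kept by the count rule. Stem-loops were searched in annotated transcripts. The members and lists were chosen with earlier results of these data known. Of 181 list entries, 3 had no row.

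Tests used edgeR 4.0.16 in R 4.3.3: the quasi-likelihood F-test with robust trended dispersion, TMM scaling, filterByExpr at a minimum count of 10, and Benjamini-Hochberg adjustment over all genes, two-sided at 0.05. The scripts were tested on simulated data. Knockout was tested against wild type within each region, each region against the mean of the other 3 in the 12 wild-type libraries, and slopes on the share of reads in no feature over 24 libraries with 8 groups. SE is the log2 value divided by the square root of F. CPM use TMM over 24 libraries. Alternatives were DESeq2 1.42.0, other scalings and filters, covariates, a replicate block and leaving out each library. DESeq2 served only as such an alternative.

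Named genes were the 5 smallest p-values of each knockout comparison, the 8 highest levels per kilobase and the top 2 of each class, up to 4 per direction in each region contrast and for the share, and the 2 smallest interaction p-values. The labels do not say whether replicates are separate animals, and the p-values therefore cover only how far these samples differ, which could be technical. Same-numbered KO and WT libraries deviated together in the cortex (r = 0.399, 0.532 and 0.104 across genes for numbers 1 to 3). Cortex KO 3 with WT 1, of different number, was at 0.288, above KO 3 with WT 3. Same-numbered libraries did not deviate together in the cerebellum (0.057 to 0.098), the hippocampus (−0.176 to 0.017) or the olfactory bulb (−0.134 to 0.134). Between regions, same-numbered WT libraries deviated together in the cerebellum and cortex (0.298 to 0.361) and in the cortex and olfactory bulb (0.128 to 0.188), but some pair was at 0.1 or less for every other pair of regions. The WT region test with the number as a block called 27, 2, 3 and 10 histone genes in cerebellum, cortex, hippocampus and olfactory bulb, against 22, 2, 2 and 6 without it.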

Additional observations from a re-analysis of the deposited data

Results flagged for a closer look

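Hist2h2aa1, an H2A gene whose 50-base windows all occur in another gene's transcript, moved in opposite directions in the cerebellum and the cortex. Every KO library lay below every WT library in the cerebellum (mean difference −0.281 CPM, KO minus WT, on 0, 1 and 2 counts in KO and 18, 3 and 4 in WT). In the cortex every KO library lay above every WT library (mean difference 0.269 CPM, on 9, 10 and 5 counts in KO and 2, 1 and 4 in WT). The difference between the regions was not tested in the fit over all 24 libraries, since the gene fell below its filter. In the 11 fits that left out 1 library and kept the gene, the unadjusted p of the interaction was 0.0238 to 0.0843 and the adjusted p was 1 (edgeR). Such a separation was seen for 7.52% of all genes kept by the count rule in the cerebellum (KO below) and for 6.84% in the cortex (KO above).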

How the results depend on the processing

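In the knockout comparisons and the interaction test, 0 histone genes passed under every alternative run. With each library left out in turn, the median log2 fold change ran from −0.12 to 0.28 in the cerebellum, −0.31 to 0.11 in the cortex, −0.68 to 0.13 in the hippocampus and −0.49 to −0.13 in the olfactory bulb. For the region contrasts in WT, leaving out libraries gave 8 to 24 calls in the cerebellum and 1 to 5 in the cortex. It gave 1 to 5 in the hippocampus (median −0.36 to 0.48) and 4 to 10 in the olfactory bulb. Over all genes these fits gave 6136 to 8933, 3954 to 6759, 3094 to 4772 and 4753 to 7423 calls in the same order. The 12 KO libraries gave 8 calls for the cerebellum; the 10 of at least 8 M gave 7 for the cortex, 14 for the hippocampus and 13 for the olfactory bulb. The share covariate gave 16 calls and a median of −0.81 for the cortex, 5 calls for the hippocampus and 25 with a median of 0.99 for the olfactory bulb. The replicate block gave 10 for the olfactory bulb. For the share in no feature the calls were 3 to 19 without single libraries, beside 1073 to 4026 over all genes. They were 8 with the log2 ratio of reads in no feature to reads in genes and 25 without the 3 libraries under 8 M. With the replicate block they were 2, in the hippocampus alone 24, and in the cerebellum and in the olfactory bulb alone 0. For the share without a unique alignment they were 35 without those 3 libraries, 6 with the block (401 of 17600 genes in all) and 8 without hippocampus WT 1. Counts over all genes are not given here for the log2 ratio, the share covariate or the fits without those 3 libraries. Those histone counts are therefore not read as particular to these genes. The cause of the changes between fits was not tested. Within-region fits hold fewer libraries. The block changed no histone call in a knockout comparison.

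Some values of single genes turned sign. Hist1h2bj, called in the WT cerebellum at −1.40 (adjusted p = 0.0142, edgeR), was at 0.23 in the 12 KO libraries and −0.20 in the 10 of at least 8 M. The others had not passed the threshold. Hist1h1d in the olfactory bulb was at 0.0075 without both libraries under 8 M. The slope of Hist1h2af was −0.24 with the block and −0.072 to 0.29 without single libraries. That of Hist2h3c2 was −0.68 in the cerebellum alone, −0.53 in the hippocampus alone and −0.074 to 0.18 without single libraries. Many Hist1 genes had under 10 counts in cerebellar libraries, and the 3 libraries under 8 M listed 5 to 18 of the 44 genes at 0. Not all of these genes were low elsewhere: olfactory bulb KO 2 listed Hist1h4f at 0, beside 215 and 275 counts in KO 1 and 3. The part of depth in these zeros was not tested.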
